A study of Mus musculus with 5 samples.

Results

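The 10 genes described here make, clear or sense prostaglandins and were taken by name from the 32285 genes of a single-nucleus RNA-seq series on 5 mouse fat depots. They are the cyclooxygenases Ptgs1 and Ptgs2, the terminal synthases Ptgis, Ptges and Ptgds, the inactivating enzyme Hpgd, and the receptors Ptger3, Ptger4, Ptgfr and Ptgir. Every gene was found in all 5 libraries' matrices, and its level was read by depot and by class of nuclei.

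Prostaglandins are short-lived lipid mediators. Cyclooxygenases turn arachidonic acid released from membranes into prostaglandin H, and a terminal synthase then sets which prostaglandin a cell makes. The products leave the cell, act on G protein-coupled receptors of the same or neighbouring cells, and are taken up and oxidised. In fat tissue, prostaglandin E acting on the receptor encoded by Ptger3 is known to restrain lipolysis, while prostacyclin is a vasodilator and prostaglandin F is known to oppose fat cell formation.

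All fat came from male mice aged 10 weeks on a chow diet: SWAT is subcutaneous and EWAT epididymal fat, MWAT is mesenteric, NWAT is perirenal and HWAT is peri-heart fat. The protocol text gives the strain as C57BL/6J, but the strain field differs for MWAT (C57BL/7J), NWAT (C57BL/8J) and HWAT (C57BL/9J). Vessels were flushed with heparinised saline before dissection, and lymph nodes beside SWAT and MWAT were cut away. Each depot is 1 library pooled from 6 mice (SWAT, EWAT and NWAT), 10 mice (MWAT) or 20 mice (HWAT), so no spread between animals can be given and no test between depots was possible. A level is the sum of a gene's UMI counts in the nuclei of 1 class and library, scaled to counts per 1e6 UMIs of all genes in those nuclei (CPM), with an exact Poisson 95% interval that covers counting error only.

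After filtering, 66249 nuclei were kept, 11094 to 16642 per library, with 18690733 to 35373964 UMIs per library and a median of 1191 (MWAT) to 2589 (NWAT) UMIs per nucleus. They fell into 41 clusters, of which 36 took a class name from marker genes and 5 stayed unnamed; a class name below means nuclei that carry that class's markers. All 9 mesothelial markers, all 8 adipocyte markers and all 8 endothelial markers were highest in their own class, as were 8 of 9 macrophage and 6 of 8 fibro-adipogenic progenitor (FAP) markers. The epithelial class of EWAT is less sure, with 3 of 7 markers highest there (Pax8, Pkhd1 and Elf3). Library pairs shared 40 to 87 cell barcodes. The libraries differed in makeup: SWAT held 2 mesothelial nuclei, against 1596 in EWAT, 3929 in MWAT, 910 in NWAT and 3391 in HWAT. MWAT alone held a large smooth muscle class (3643 nuclei), and HWAT held 2376 B cell nuclei. FAP nuclei of all 5 depots came mostly or wholly from a single cluster led by Pdgfra, but mesothelial nuclei did not: 3374 of those in HWAT formed 1 cluster, 2411 and 1456 of those in MWAT formed 2 others, and EWAT and NWAT shared another. The adipocytes of each depot likewise sat mainly in a cluster of their own. Depot and cluster therefore cannot be told apart in those classes. Within FAP, the named sub-clusters were also spread unevenly over depots. Of 1380 committed preadipocyte nuclei, 782 were from SWAT and 540 from EWAT. Of 586 Dpp4 progenitor nuclei, 94 were from SWAT, 261 from EWAT and 210 from NWAT. Few nuclei of either were thus from MWAT or HWAT. The part of sub-cluster makeup in the FAP differences between depots was not tested.

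The 10 genes differed in depth, with 16218 counts for Ptgis, 12658 for Hpgd, 7723 for Ptger3, 5639 for Ptges and 4818 for Ptgs1, against 1329 for Ptgds, 1016 for Ptger4, 516 for Ptgfr, 324 for Ptgs2 and 276 for Ptgir. Of the 10, 2 (Ptgis and Ptgds) had a leading class at 2-fold or more over the next class, where 27.4% of all genes tested did. Among the classes found in 4 or 5 libraries, 3 of 10 did (Ptgis, Ptgds and Ptgfr), where 29.2% of all genes did. By either count the members' share is near the background, and nothing about the group is read from it.

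**Figure D1:**
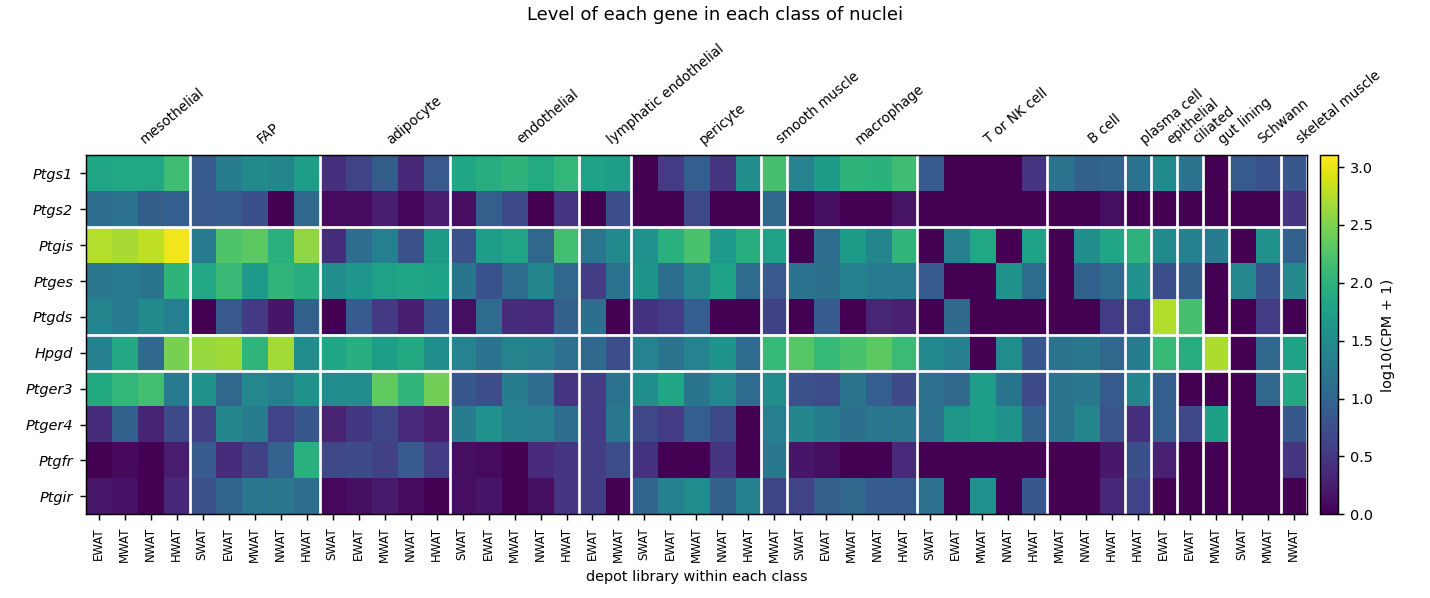
Level of the 10 genes (rows, split by role into cyclooxygenases, terminal synthases, inactivation and receptors) in each class of nuclei and depot library (columns, classes of 50 or more nuclei), as log10(CPM + 1). Ptgis is brightest in the 4 mesothelial columns, Hpgd in FAP of SWAT, EWAT and NWAT, and Ptger3 in adipocytes of MWAT, NWAT and HWAT.

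Ptgs1, the constitutive cyclooxygenase (chr2:36230426-36252272, plus strand, GRCm38), was spread over endothelial, mesothelial, macrophage and, in MWAT, smooth muscle nuclei, and was scarce in adipocytes. Smooth muscle of MWAT had the highest level, 155 CPM (interval 144 to 167), and held 48.2% of the Ptgs1 UMIs of that library. Its lead over the next class (log2 0.81) turned to -0.91 at the finer Leiden resolution of 2 and to -1.04 when each nucleus was classed singly by its marker score. Endothelial nuclei had 64.9 CPM in SWAT, 84.1 in EWAT, 103 in MWAT, 76.9 in NWAT and 113 in HWAT. Adipocytes had 1.66, 3.38, 7.28, 1.21 and 6.34 CPM in the same order of depots. The endothelial and adipocyte intervals did not overlap in any depot.

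Among the named endothelial sub-clusters, Ptgs1 was highest in the venous one. Venous nuclei held 572 of the 1087 endothelial Ptgs1 counts, capillary nuclei 78 and arterial nuclei 61. The rest lay in sub-clusters without a name, which are not compared here. Venous endothelium had 173 CPM in SWAT, 190 in EWAT, 183 in MWAT and 242 in NWAT, against 19.1, 20.4, 17.1 and 16.5 CPM in capillary endothelium of the same libraries. The venous level was 9.08 (5.49 to 16.0), 9.31 (6.36 to 14.0), 10.7 (5.04 to 26.1) and 14.6 (9.31 to 24.2) times the capillary one. Arterial endothelium was also lower than venous in all 4 libraries, at 7.83 CPM in SWAT, 38.7 in EWAT, 44.0 in MWAT and 6.2 in NWAT. HWAT is left out because none of these named sub-clusters held 50 or more of its 384 endothelial nuclei.

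Macrophages and FAP differed in Ptgs1 between depots. Macrophages had 22.9 CPM (16.5 to 30.9) in SWAT, against 49.2 in EWAT, 102 in MWAT, 96.2 in NWAT and 141 in HWAT, so that SWAT was 0.47 times the next lowest depot. FAP had 6.76 CPM (3.70 to 11.3) in SWAT, against 19.0 in EWAT, 28.3 in MWAT, 25.2 in NWAT and 52.7 in HWAT, a SWAT level 0.36 times the next lowest (0.18 to 0.68). With the unnamed HWAT cluster led by Pdgfra and Cxcl13 (120 CPM) joined to them, FAP of HWAT had 99.6 CPM, and HWAT was then 3.52 times MWAT (2.44 to 5.20), against 1.87 times without it. Here and below, the joining was made in HWAT only. The cluster's 58 MWAT and 24 NWAT nuclei stayed outside FAP, so joined ratios compare FAP groups that were not defined alike. Most HWAT macrophages (757 of 1199 nuclei) formed a cluster led by Fcna, Prg4 and Marco that held none of those of SWAT. Resident-type macrophages of HWAT had 166 CPM of Ptgs1, while lipid-associated macrophages had 2.41 in SWAT and 9.83 in EWAT. Among FAP, committed preadipocytes had 2.16 CPM in SWAT and 8.55 in EWAT, against 25.0 and 44.9 CPM in Dpp4 progenitors of those depots, ratios of 0.087 (0.013 to 0.51) and 0.19 (0.082 to 0.41). Mesothelial nuclei had 141 CPM (131 to 151) in HWAT, against 64.7 in EWAT, 70.4 in MWAT and 69.9 in NWAT.

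**Figure D2:**
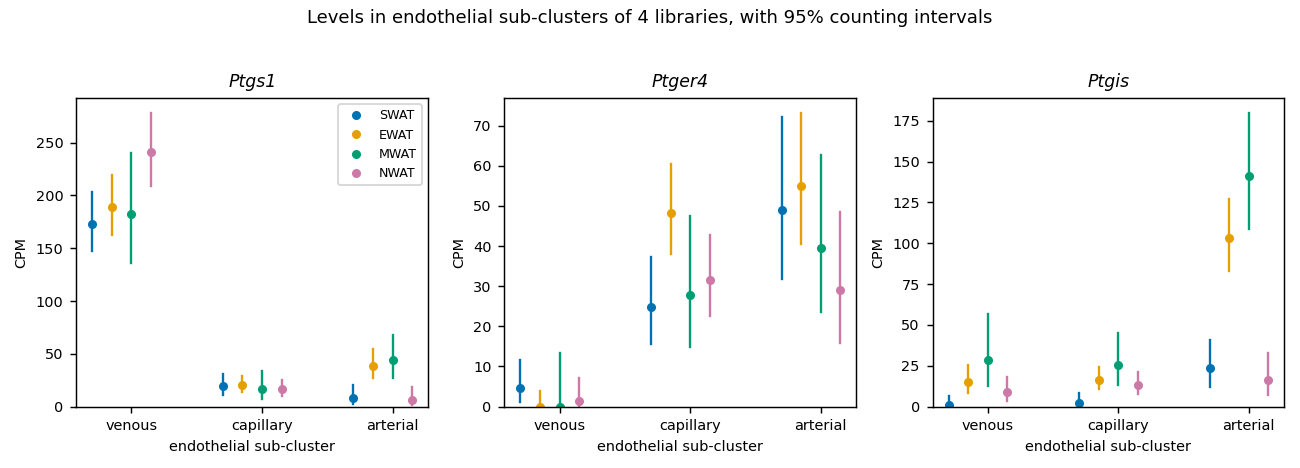
CPM of Ptgs1, Ptger4 and Ptgis in venous, capillary and arterial endothelial sub-clusters of SWAT, EWAT, MWAT and NWAT, with points for libraries and bars for 95% counting intervals. Ptgs1 is highest in venous nuclei of all 4 libraries, while Ptger4 is near 0 there, and Ptgis is highest in arterial nuclei of SWAT, EWAT and MWAT.

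Ptgs2, the inducible cyclooxygenase, was rare, with at least 1 UMI in 287 of the 66249 nuclei. Mesothelial nuclei had 11.4 CPM in EWAT, 13.9 CPM in MWAT, 7.19 CPM in NWAT and 7.37 CPM in HWAT, from 38, 68, 15 and 41 counts, and smooth muscle of MWAT had 10.6 CPM from 49 counts. FAP had 6.28 CPM in SWAT, 6.85 in EWAT, 4.71 in MWAT and 9.77 in HWAT, with 0 counts in NWAT, where 3 counts would be 1.58 CPM and the exact interval ends at 1.94 CPM. Among mesothelial intervals only those of MWAT and HWAT do not overlap, and among FAP that of NWAT lies below those of SWAT, EWAT and HWAT. In SWAT, 11 of the 13 FAP counts came from 94 Dpp4 progenitor nuclei (68.7 CPM) and none from 782 committed preadipocyte nuclei. The 16 immediate early genes listed have RNA known to respond to handling and other acute stimuli. They summed to 2800 CPM in FAP of SWAT, 1010 in EWAT, 1009 in MWAT, 509 in NWAT and 1586 in HWAT. NWAT, with no Ptgs2 counts in FAP, had the lowest sum, but SWAT, with the highest sum, did not have the most Ptgs2. In mesothelial nuclei NWAT was also lowest in both (sum 590 CPM). There the sum was highest in HWAT (1813 CPM), but Ptgs2 was highest in MWAT (sum 1011 CPM). The part of these genes in the Ptgs2 levels was not tested.

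Ptgs2 starts head to head with an antisense neighbour. It lies at chr1:150100031-150108227 on the plus strand and the noncoding gene Ptgs2os at chr1:150074873-150099963 on the minus strand of GRCm38, 68 bases apart from start to start. Ptgs2os, with 409 counts, was also the gene whose profile was most like that of Ptgs2 over 47 depot-by-class sums (r = 0.81 on log2(CPM + 1), given as a description). Its mesothelial levels were 8.72 CPM in EWAT, 23.1 CPM in MWAT, 7.67 CPM in NWAT and 6.83 CPM in HWAT, and smooth muscle of MWAT had 29.6 CPM. How strand was handled in the counting is not given in the sources used here, and reads that cross between these neighbours were not tested. Promoters were listed for 9 of the 10 members, Ptgis being the exception. The promoters of both cyclooxygenase genes, 250 bases before to 50 bases after the gene start (RefSeq, GRCm38.p6; chr1:150099781-150100080 and chr2:36230176-36230475, both plus strand), are shown because the Ptgs2 window holds the whole gap between that gene and Ptgs2os, with the Ptgs1 window beside it:
Ptgs2: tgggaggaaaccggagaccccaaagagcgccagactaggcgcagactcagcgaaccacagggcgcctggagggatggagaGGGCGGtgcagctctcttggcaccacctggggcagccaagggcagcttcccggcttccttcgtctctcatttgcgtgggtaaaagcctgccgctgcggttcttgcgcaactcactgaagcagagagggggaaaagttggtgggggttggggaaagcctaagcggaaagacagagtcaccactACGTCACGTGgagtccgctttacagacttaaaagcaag
Ptgs1: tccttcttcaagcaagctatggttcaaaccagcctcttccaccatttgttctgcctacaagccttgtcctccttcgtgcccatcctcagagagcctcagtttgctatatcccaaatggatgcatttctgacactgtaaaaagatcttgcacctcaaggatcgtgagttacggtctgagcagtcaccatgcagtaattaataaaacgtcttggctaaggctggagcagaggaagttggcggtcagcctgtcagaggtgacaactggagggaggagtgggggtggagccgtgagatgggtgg

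Capitals mark matches to 5 motifs searched on both strands: TATAAA (the consensus that places transcription starts), TGACGT (a cyclic AMP response element core), CACGTG (an E-box), GGGCGG (a GC box) and CCAAT. The Ptgs2 window holds TGACGT on the minus strand overlapping CACGTG within the gene, at bases 13 to 22 counted from its annotated start as base 1, and 1 GGGCGG before the start; the Ptgs1 window holds none of the 5. TGACGT was found in 7.51% of 32851 promoters of the same length, CACGTG in 7.15%, TATAAA in 13.6%, GGGCGG in 35.7% and CCAAT in 37.4%. A match describes these letters and does not show that a factor binds there.

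Ptgis, which makes prostacyclin from prostaglandin H (chr2:167191805-167240604, minus strand), was a mesothelial transcript in every depot with mesothelium. Mesothelial nuclei had 1076 CPM in HWAT, 642 in NWAT, 574 in EWAT and 499 in MWAT, and their mean was 3.97 times that of FAP, the next class, a log2 lead of 1.99 that was 0.52 when each nucleus was classed by its own marker score. They held 67.5% of the Ptgis UMIs of EWAT, 71.5% in MWAT, 74.3% in NWAT and 74.1% in HWAT, while making up 9.40%, 22.6%, 6.32% and 29.8% of all UMIs there. A Ptgis UMI was seen in 60.3% of mesothelial nuclei in EWAT, 41.7% in MWAT, 70.7% in NWAT and 69.8% in HWAT, and in 42.5%, 38.4%, 43.9% and 59.6% once every nucleus was thinned to 1000 UMIs. B cells of HWAT, a class that should lack the enzyme, had a share of 7.83% (5.22% thinned), at a median of 1204 UMIs per nucleus, against 1560 in mesothelial nuclei of HWAT.

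The Ptgis gene is overlapped on the other strand by 1110018N20Rik and Gm14291, whose reads cannot be told apart from its own if strand was not used in counting. FAP came next, with levels that differed between depots. They had 18.4 CPM (13 to 25.2) in SWAT, against 92.9 in NWAT, 175 in EWAT, 209 in MWAT and 383 in HWAT, so that SWAT was 0.20 times the next lowest depot (0.14 to 0.28). A cluster in MWAT counted as FAP and led by Pdgfra and Kcnn3 had 369 CPM, and without it FAP of MWAT had 159 CPM. The unnamed HWAT cluster of 620 nuclei with Pdgfra and Cxcl13 among its leading genes had 931 CPM; joined to FAP it gave 763 CPM in HWAT, 3.65 times MWAT (3.19 to 4.18), against 1.83 times without it. Within SWAT, committed preadipocytes had 13 CPM, against 74.9 CPM in Dpp4 progenitors (ratio 0.17, 0.079 to 0.39).

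In adipocytes, endothelium and macrophages Ptgis was lowest in SWAT and highest in HWAT. Adipocytes had 47.3 CPM in HWAT, 20.8 in MWAT, 12.0 in EWAT, 4.89 in NWAT and 1.51 in SWAT, so that HWAT was 2.27 times the next depot (log2 1.18, but 0.60 with doublets left in and 0.94 with at most 2% mitochondrial UMIs). Endothelial nuclei had 143 CPM in HWAT, 64.1 in MWAT, 54.2 in EWAT, 10.3 in NWAT and 4.95 in SWAT, and HWAT was 2.22 times the next depot (1.65 to 2.98). Macrophages had 106 CPM in HWAT, 47.9 in MWAT, 25.6 in NWAT, 12.0 in EWAT and 0 counts in SWAT, where 3 counts would be 1.64 CPM and the exact interval ends at 2.01 CPM. Their HWAT lead (log2 1.14) was 0.82 with nuclei classed singly. The same libraries differ in mesothelial nuclei, and free mesothelial RNA was therefore read beside these values. As a percent of the mesothelial level of the same library, Ptgis in adipocytes stood at 2.09% in EWAT, 4.17% in MWAT, 0.76% in NWAT and 4.39% in HWAT, against a median of 0.91%, 2.98%, 0.52% and 3.05% for the 9 mesothelial markers. In FAP it stood at 30.5%, 41.8%, 14.5% and 35.6%, against marker medians of 1.47%, 4.16%, 0.74% and 4.05%. Adipocyte Ptgis lay within the range of the 9 markers in all 4 libraries. In FAP it lay above every marker in EWAT, MWAT and NWAT and inside the range in HWAT, and in endothelium and pericytes it lay above the range in all 4. In macrophages it lay within the range in EWAT and MWAT and above it in NWAT and HWAT. How much of the Ptgis count in these classes is free RNA was not tested.

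Arterial endothelium stood out among the named endothelial sub-clusters. Arterial nuclei held 174, capillary nuclei 57 and venous nuclei 30 of the 475 endothelial Ptgis counts. The rest lay in sub-clusters without a name, which are not compared here. Arterial endothelium had 103 CPM of Ptgis in EWAT and 141 in MWAT, against 16.5 and 25.6 CPM in capillary endothelium of those depots. These were 6.24 times (3.99 to 10.1) and 5.5 times (2.94 to 11.2) as much. In SWAT the levels were 23.5 and 2.24 CPM from 12 and 2 counts, a ratio of 10.5 with a wide interval (2.33 to 96.3). In NWAT they were 16.5 and 13.4 CPM with a ratio of 1.24 (0.46 to 3.03), so a difference was not detectable in NWAT.

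**Figure D3:**
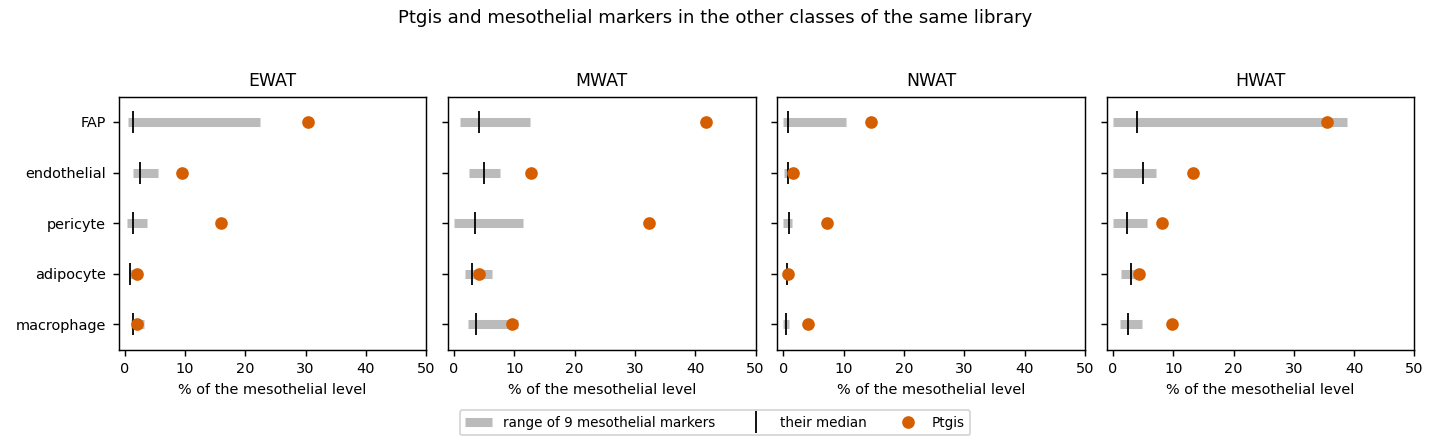
Ptgis level in 5 other classes as a percent of the mesothelial level of the same library (points), beside the range (grey bar) and median (tick) of the 9 mesothelial markers treated the same way. In FAP of EWAT, MWAT and NWAT the point (30.5%, 41.8% and 14.5%) lies beyond the marker range, whereas in adipocytes it lies within it.

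Ptges, the inducible synthase of prostaglandin E (chr2:30889471-30929863, minus strand), was highest in FAP or adipocytes of every depot but HWAT. Pericytes, with 39.3 CPM in SWAT and 62.5 in NWAT, stood above adipocytes in SWAT and near them in NWAT. FAP had 71.5 CPM in SWAT, 125 in EWAT, 46.3 in MWAT, 106 in NWAT and 87.9 in HWAT. Adipocytes had 33.5, 41.7, 58.9, 66.1 and 61.8 CPM in the same order, and through their number they held 63.2% of all Ptges UMIs in SWAT, 70.2% in EWAT, 57.2% in MWAT and 76.1% in NWAT. HWAT differed, with 19.0% of its Ptges UMIs in adipocytes and 46.1% in mesothelial nuclei. Mesothelial Ptges was 102 CPM (94.0 to 111) in HWAT, against 18.6 in MWAT, 16.5 in EWAT and 14.9 in NWAT, or 5.49 times the next depot (4.39 to 6.93). The mesothelial clusters of HWAT and of the other depots are not the same, and the unnamed Pdgfra and Cxcl13 cluster of that library also had 217 CPM. Joined to FAP of HWAT it gave 178 CPM, against 87.9 without it.

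Ptgds, which makes prostaglandin D (chr2:25466709-25470046, minus strand), was highest in 1 class of 1 depot. The epithelial class of EWAT (595 nuclei) had 558 CPM (514 to 605), 3.55 times the 157 CPM of the ciliated class, the next one; the log2 lead of 1.83 was 0.74 with at most 2% mitochondrial UMIs. It held 599 of the 1329 Ptgds counts of the series, and 63.2% of those of EWAT in 3.03% of all UMIs there. Mesothelial nuclei came next among the classes seen in several depots, with 23.8 CPM in EWAT, 18.0 CPM in MWAT, 29.2 CPM in NWAT and 20.5 CPM in HWAT, and of these intervals only those of MWAT and NWAT do not overlap. In SWAT, which had 2 mesothelial and 8 epithelial nuclei, 2 Ptgds counts were found in the whole library.

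Hpgd, which oxidises and thereby inactivates prostaglandins (chr8:56294585-56321043, plus strand), was a gene of FAP, macrophages and adipocytes, and its FAP level separated the depots. FAP had 33.2 CPM (19.3 to 53.2) in HWAT and 104 (87.5 to 124) in MWAT, against 422 in SWAT, 455 in EWAT and 470.5 in NWAT. HWAT was thus 0.32 times MWAT (0.18 to 0.53), a log2 ratio of -1.65 that was -0.56 with nuclei classed singly by marker score, and -2.40 with the unnamed cluster described above added to FAP of HWAT. A Hpgd UMI was seen in 4.35% of FAP nuclei in HWAT and 10.2% in MWAT, against 35.2% in SWAT, 40.8% in EWAT and 44.3% in NWAT. B cells had shares of 1.3% in HWAT, 1.43% in MWAT and 1.52% in NWAT, at medians of 1204, 858.5 and 1355 UMIs, where FAP had 1361, 1074 and 2306.5. The level in MWAT was 99.7 CPM without its Pdgfra and Kcnn3 cluster. The unnamed Pdgfra and Cxcl13 cluster of HWAT had 13.9 CPM. Committed preadipocytes carried more than Dpp4 progenitors, with 573 against 125 CPM in SWAT (4.59 times, 2.95 to 7.55) and 551 against 273 CPM in EWAT (2.02 times, 1.69 to 2.43).

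Mesothelial Hpgd ran the other way between depots. It was 292 CPM (278 to 307) in HWAT, against 73.5 in MWAT, 21.4 in EWAT and 10.5 in NWAT, so that HWAT was 3.97 times MWAT (3.54 to 4.47). The low NWAT value is less sure: its log2 ratio to EWAT of -1.02 was -0.15 to -0.99 under 5 alternatives. In HWAT 75.1% of the Hpgd UMIs lay in mesothelial nuclei and 0.79% in FAP, while in SWAT 40.4% lay in adipocytes and 39.7% in FAP. Macrophages were closer to each other, with 189 CPM in SWAT, 119 in EWAT, 162 in MWAT, 210 in NWAT and 128 in HWAT; lipid-associated macrophages had 28.9 CPM in SWAT and 17.2 in EWAT. Adipocytes had 67.3, 85.6, 52.3, 74.6 and 33.5 CPM in SWAT, EWAT, MWAT, NWAT and HWAT. Gut lining nuclei, a class of 64 in MWAT, had 522 CPM from 55 counts, and smooth muscle of MWAT had 119 CPM.

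**Figure D4:**
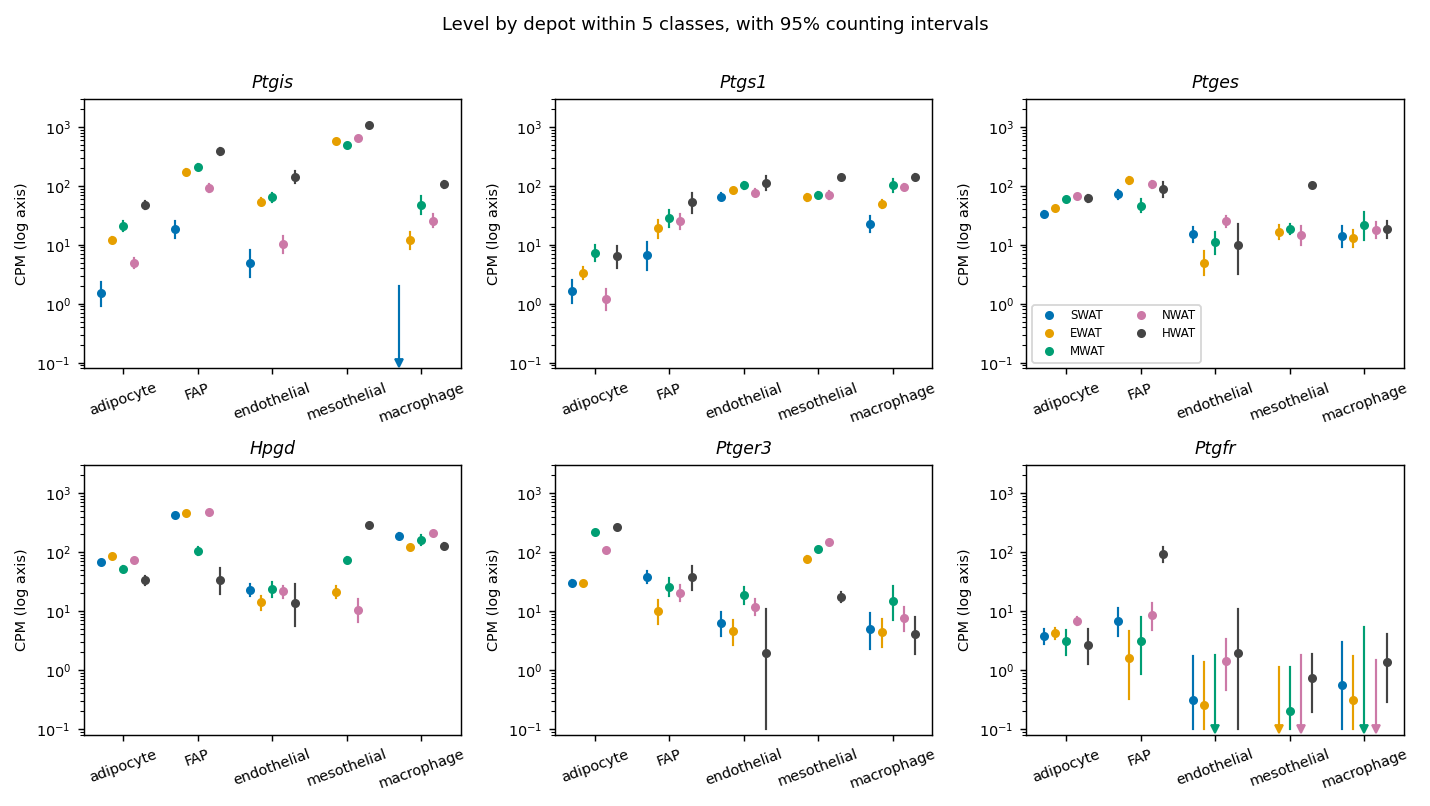
CPM (log axis) of 6 genes in 5 classes by depot, with bars for 95% counting intervals; triangles at the foot mark sums with 0 counts and bars without a lower end reach below the axis. Hpgd is lowest in FAP and highest in mesothelial nuclei of HWAT, Ptger3 is highest in adipocytes of HWAT and MWAT, and Ptgfr is highest in FAP of HWAT.

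Ptger3, the inhibitory prostaglandin E receptor (chr3:157566892-157645888, plus strand), was highest in adipocytes of HWAT and MWAT, in mesothelial nuclei of NWAT and EWAT, and in FAP of SWAT. Adipocytes had 268 CPM (252 to 285) in HWAT, 218 (206 to 230) in MWAT and 109 (105 to 114) in NWAT, against 30.2 in SWAT and 30.4 in EWAT. The intervals of HWAT, MWAT and NWAT overlap neither each other nor those of SWAT and EWAT, which overlap. Because 3 depots lie above and 2 below, no single depot stood 2-fold from its neighbour at either end. The share of adipocyte nuclei with a Ptger3 UMI was 29.7% in HWAT, 24.8% in MWAT and 22.3% in NWAT, against 5.11% in SWAT and 6.27% in EWAT. Thinned to 1000 UMIs per nucleus the shares were 19.5%, 18.5% and 9.02%, against 2.74% and 2.93%. Macrophages, which had few Ptger3 counts, had shares of 0.75% to 1.55%, at a median of 1045 to 2060 UMIs per nucleus, against 1462 to 3240 in adipocytes. HWAT adipocytes include a thermogenic sub-cluster of 268 nuclei with 48.9 CPM, and without it the level in HWAT was 311 CPM.

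Mesothelial Ptger3 had the opposite extreme. It was 17.3 CPM (14.0 to 21.1) in HWAT, against 76.1 in EWAT, 111 in MWAT and 146 in NWAT, or 0.23 times the next lowest depot (0.18 to 0.29). Adipocytes held 84.0% of the Ptger3 UMIs of HWAT, 83.5% in NWAT, 75.0% in SWAT, 64.8% in EWAT and 58.6% in MWAT. In FAP the range was 10.0 CPM in EWAT to 37.7 in SWAT, and in pericytes 11 CPM (1 count) in HWAT to 67.7 in EWAT. The ratio of EWAT FAP to the next lowest depot (log2 -1.03) was -0.99 with more doublets removed, -0.60 by the mean of each nucleus's CPM and -0.36 with nuclei classed singly. Skeletal muscle nuclei of NWAT had 72.4 CPM. After adipocytes, these nuclei also had the highest level of every adipocyte marker. Adipoq, for example, stood at 1017 CPM in them, against a mean over depots of 1633 CPM in adipocytes. How much of their Ptger3 is adipocyte RNA was not tested.

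Ptger4, a prostaglandin E receptor coupled to cyclic AMP production (chr15:5206661-5244187, minus strand, overlapped by Ttc33 on the other strand), was found in endothelium, macrophages and FAP. Endothelial nuclei had 19.8 CPM in SWAT, 36.2 in EWAT, 22.2 in MWAT, 20.3 in NWAT and 11.7 in HWAT, and macrophages had 25.6, 18.9, 13.1, 15.4 and 16.5 CPM. FAP had 2.90 CPM in SWAT, 25.8 in EWAT, 18.9 in MWAT, 3.15 in NWAT and 5.86 in HWAT, and the intervals of EWAT and MWAT lie above those of SWAT and NWAT. With the unnamed Pdgfra and Cxcl13 cluster joined, FAP of HWAT had 22.8 CPM (16.1 to 31.3), close to EWAT and MWAT. T or NK cells had 7.94 to 52.9 CPM but from only 2 to 5 counts in each depot, and smooth muscle of MWAT had 20.8 CPM. Arterial endothelium had 49.0 CPM in SWAT, 55.1 in EWAT, 39.6 in MWAT and 28.9 in NWAT, and capillary endothelium 24.7, 48.3, 27.8 and 31.4 CPM. Venous endothelium had 4, 0, 0 and 1 counts in those libraries, 4.53 CPM in SWAT and 1.27 in NWAT. Among the named endothelial sub-clusters, the one with the most Ptgs1 was therefore the one with the fewest Ptger4 counts in all 4 libraries. Mesothelial Ptger4 was 8.19 CPM in MWAT, against 3.77 in HWAT, 1.5 in EWAT and 0.96 in NWAT (2.17 times the next depot, 1.25 to 3.87), but its log2 ratio of 1.12 was 0.22 with doublets removed at 1.6% per 1000 nuclei, 0.13 with the pathway genes kept in the clustering, 0.79 with no doublets removed and 0.96 with TMM factors.

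Ptgfr, the receptor for prostaglandin F (chr3:151796502-151837630, minus strand), was low except in FAP of HWAT. These had 91.8 CPM (67.5 to 122) from 47 counts, against 8.40 in NWAT, 6.76 in SWAT, 3.14 in MWAT and 1.58 in EWAT, 10.9 times the next depot (6.09 to 20.6). In HWAT FAP held 59.5% of the Ptgfr UMIs in 2.74% of all UMIs. A Ptgfr UMI was seen in 10.7% of FAP nuclei in HWAT, at a median of 1361 UMIs, and in 0.084% of B cells of that library, at 1204. When the unnamed Pdgfra and Cxcl13 cluster, which had 6 counts, was joined to them the level was 31.8 CPM. The log2 ratio of 3.45 was then 1.92, and it was 1.63 with at most 2% mitochondrial UMIs, where that cluster merged into FAP. Adipocytes had 2.64 CPM in HWAT to 6.75 in NWAT, and smooth muscle of MWAT had 16.7 CPM and held 74.0% of that library's Ptgfr UMIs.

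Ptgir, the prostacyclin receptor (chr7:16906490-16910905, plus strand), had the fewest counts of the 10. Pericytes had 9.36 CPM in SWAT, 21.8 in EWAT, 30.1 in MWAT, 7.81 in NWAT and 22.0 in HWAT, from 2 to 9 counts each, with intervals that all overlap. FAP had 4.83 CPM in SWAT, 8.95 in EWAT, 15.7 in MWAT, 15.8 in NWAT and 11.7 in HWAT, and macrophages 3.27 to 10.2 CPM. Differences in Ptgir between depots were not detectable at this depth in pericytes.

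**Figure D5:**
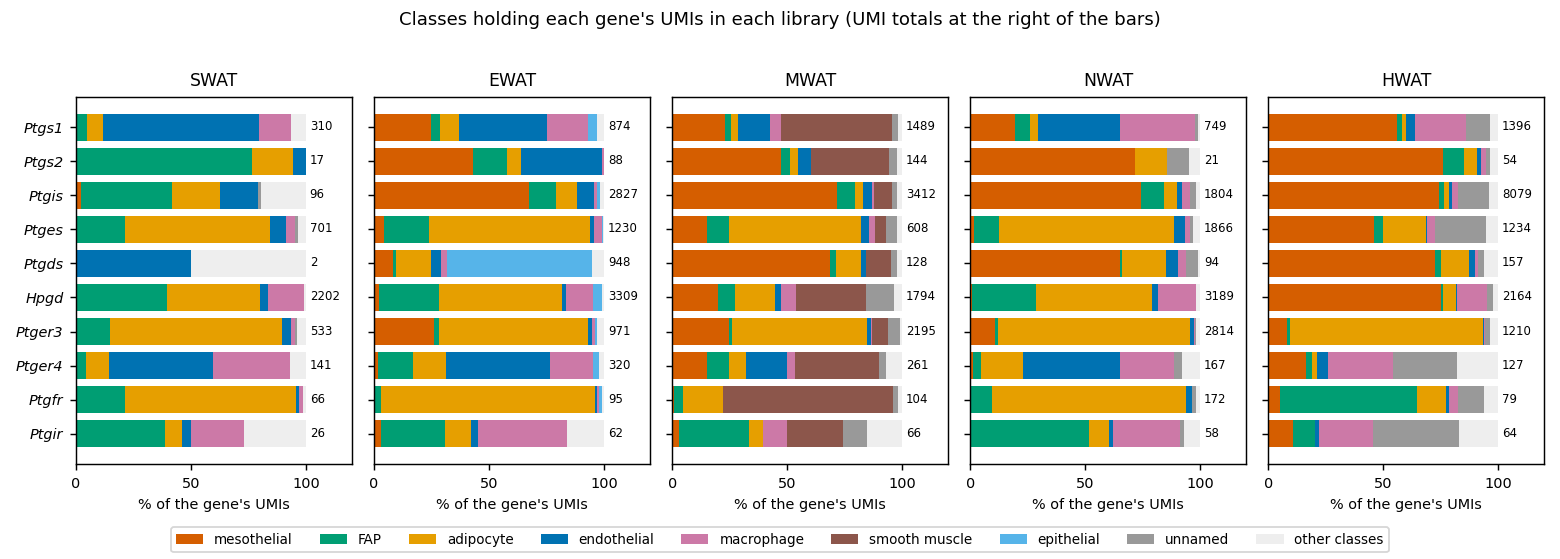
Percent of each gene's UMIs that lie in each class of nuclei, by library, with the gene's UMI total in that library at the right of each bar. Mesothelial nuclei hold most of Ptgis in EWAT, MWAT, NWAT and HWAT, and most of Hpgd in HWAT (75.1%), and adipocytes hold most of Ptger3 in every library.

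Within a class, a gene was called different between depots when the highest depot had at least 2 times the next, or the lowest at most 0.5 times the next lowest. In FAP 6 of 10 members were called, where 13.8% of all genes were. Of these calls 5 were for a low depot (8.53% of all genes), namely Ptgs1 and Ptgis in SWAT, Hpgd in HWAT, Ptger3 in EWAT and Ptgs2 in NWAT. The remaining call was for a high depot (6.2% of all genes), Ptgfr in HWAT. HWAT was also called high for Ptgs1 in 3 of 15 alternatives and for Ptgis in 6, among them the joining of the Pdgfra and Cxcl13 cluster to FAP. The Ptgs2 call rests on 0 counts taken as 3, and its interval (0.054 to 1.56) includes no difference; with nuclei classed singly its log2 ratio was -0.92. In mesothelial nuclei 4 of the 8 members with enough counts were called (Ptges, Hpgd, Ptger3 and Ptger4), where 15.5% of all genes were. In macrophages 3 of 8 were called (Ptgs1, Ptgis and Ptgir), where 12.5% of all genes were, and the interval of Ptgir (0.16 to 1.3) includes no difference; its log2 ratio of -1.03 was -0.82 to -1.0 under 5 alternatives. In adipocytes 2 of 8 were called (Ptgis and Ptgds), where 19.8% of all genes were. In endothelium 1 of 8 was (Ptgis), where 14.5% were, so the adipocyte and endothelial counts stand near the background. The members were chosen with earlier results of these data known, so nothing about the group is read from the counts in any class. The low SWAT ratio of Ptgds in adipocytes (0.27 times, 0.051 to 0.93) also rests on 0 counts taken as 3. Its log2 value of -1.88 was -0.88 with nuclei classed singly. The part of free RNA in the adipocyte Ptgds of the other depots was not tested. The low SWAT ratio of Ptgis in endothelium (log2 -1.06) was -0.54 to -0.98 under 4 alternatives.

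The rest of the pathway gave 75 further genes in the files, of which 70 could be tested. Of these, 29 had a leading class at 2-fold or more, where 27.4% of all genes tested did. Macrophages led 7 of them, among them Tbxas1, the thromboxane synthase, at 499 CPM in SWAT, 719 in EWAT, 711 in MWAT, 736 in NWAT and 611 in HWAT, 34.2 times the next class by mean. The leukotriene genes Alox5, Alox5ap and Ltc4s were also led by macrophages, as were Alox15, Cbr2 and Pla2g7. Alox15 had 160 CPM in HWAT macrophages, 79.8 in MWAT, 46.1 in NWAT and 1.89 in EWAT, with 0 counts in SWAT. Macrophages also had the most Hpgds, the haematopoietic prostaglandin D synthase, although not by 2-fold, with 30.3 CPM in HWAT, against 93.8 in NWAT, 113 in MWAT, 126 in EWAT and 140 in SWAT.

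Of the other receptors tested, 2 of 6 were led by 1 class, where 27.4% of all genes tested were. Ptger2, the second receptor that raises cyclic AMP on prostaglandin E, was a pericyte gene at 78.6 CPM in SWAT, 79.8 in EWAT, 48.9 in MWAT, 119 in NWAT and 77.0 in HWAT, 3.84 times the next class. Pericytes therefore had both Ptgir and Ptger2 counts in all 5 libraries, and Ptger2 was the gene most like Ptgir over the 47 sums (r = 0.74, a description). Slco2a1, which carries prostaglandins into cells ahead of their oxidation, had 17.0 CPM in MWAT mesothelial nuclei, against 154 in EWAT, 155 in NWAT and 171 in HWAT. Between depots, 12 of 55 other pathway genes tested were called in FAP, where 13.8% of all genes were. In mesothelial nuclei 13 of 58 were called (15.5% of all genes) and in macrophages 16 of 56 (12.5%). In adipocytes 16 of 65 were called (19.8%) and in endothelium 13 of 55 (14.5%).

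For the remaining members the genes with the most similar profile were Trpv4, Parvb and Sec14l1 for Ptgs1 (r = 0.80 for the closest), Wt1, Osr1 and Tmem151a for Ptgis (0.80) and Pgghg, Gm26881 and Rab3d for Ptges (0.75). They were Ccdc158, Lrp2 and Folr1 for Ptgds (0.81), Dnm1, Klhl33 and Tmem178b for Hpgd (0.73) and Pdzrn3, Hspb8 and Pik3r1 for Ptger3 (0.69). For Ptger4 they were Evl, Neurl3 and Dennd1b (0.75), and for Ptgfr Gm17057, 4933436I20Rik and 4930447C04Rik (0.69). The 47 sums share libraries, and classes present in several depots weigh more than those in 1, so these values describe likeness only.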

How the data were processed

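The deposited files hold raw UMI counts per gene and barcode for 1 library per depot, and per the file headers Cell Ranger 6.0.1 wrote them; the submitters' processing notes name mm10 and Seurat. The libraries are 10x 3′ v3, per the labels' protocols. The annotation release and whether intronic reads were counted are not given in the sources used here. The members and lists were chosen with earlier results of these data known.

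Barcodes needed at least 200 genes and at most 10% mitochondrial UMIs. Doublets were removed by simulated-doublet neighbour scores at 0.8% per 1000 nuclei (9.83% to 15.8% per library). Nuclei were clustered on 2000 variable genes, 40 components and 20 neighbours with Leiden resolution 1, leaving out the members and listed pathway genes. A cluster took the class whose markers had a mean log2 excess of at least 1, and a lead of 0.4 over the next class; that lead was set after the clusters were seen, and at 0.5 the pericyte cluster would be unnamed. Sub-clusters within a class were made at resolution 0.5 and named from marker lists by a looser rule (mean log2 excess 0.5, lead 0.25). Counts were summed per class and library, in classes of 50 or more nuclei, and scaled to CPM. Ratios have exact conditional binomial intervals, shares exact binomial ones, and sums under 3 counts were taken as 3 in depot ratios; all cover counting error only. Genes needed 20 counts to enter a comparison. All members were named; other pathway genes were named where they had 20 counts in a class and were led by 1 class at 2-fold or differed between depots. For likeness, the 3 closest genes of 15213 with 200 or more counts were named. Gene positions are those of GENCODE vM21 (GRCm38). Scripts were tested on simulated data. Python 3.11.15, numpy 2.4.6, scipy 1.17.1, scikit-learn 1.9.0, leidenalg 0.10.2, R 4.3.3 and edgeR 4.0.16 (TMM factors only) were used.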

Additional observations from a re-analysis of the deposited data

Results flagged for a closer look

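An unnamed cluster, mostly of HWAT nuclei, carried prostaglandin genes that no class comparison uses. Its 703 nuclei, 620 of them from HWAT, had Dclk1, Cxcl13, Penk and Pdgfra among their leading genes. FAP and mesothelial markers were both raised in it, so that it took no class name. In its HWAT nuclei Ptges stood at 217.3 CPM (191.3 to 245.9) from 251 counts, above the highest named class of that library, mesothelial nuclei at 102.3 CPM. Ptger4 stood at 30.3 CPM (21.11 to 42.15) from 35 counts, above macrophages at 16.52 CPM, the highest named class. The cluster also held 58 nuclei of MWAT, 24 of NWAT and 1 of EWAT, which are not in these values. No cause was tested.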

How the results depend on the processing

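No paired analysis was possible because each depot is 1 library with no replicates, and for the same reason no library could be left out of a group. Against 2 members led by 1 class, classing each nucleus by marker score gave 1 and median-of-ratios factors gave 4. Against 1 endothelial depot call, there were 4 with no doublets removed and with the mean of each nucleus's CPM, 3 with no minimum count, 0 at 3-fold, and 2 each with at least 500 genes, at most 2% mitochondrial UMIs, the members in the clustering, resolution 2, per-nucleus classes and median-of-ratios factors. Against 2 adipocyte calls there were 4 with no doublets removed and 1 with per-nucleus classes. FAP had 3 calls at 3-fold (Ptgis, Hpgd and Ptgfr), and macrophages 1 at 3-fold and 5 with no minimum count. The cause was not tested, except that a lower or higher bar admits or drops genes by construction. The other 65 of the 82 recomputed counts stayed within 1.5 times the reported one, and none of the called ratios reversed. The uncalled lead of adipocytes in Ptger3 (log2 0.59) turned negative in 5 alternatives, at most to -0.54. TMM factors of adipocyte sums were 0.757 to 0.877, which lifts every adipocyte level by 0.19 to 0.40 on the log2 scale. Depth limits Ptgs2, Ptgfr and Ptgir most, with 276 to 516 counts each. Alternatives that regroup FAP, or keep only classes of 4 or 5 libraries, were chosen after seeing the data.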

Other observations

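Of the 20 listed genes of receptor signalling, 5 of 19 tested were called between depots in adipocytes (19.8% of all genes were), 4 of 19 in FAP (13.8%), 5 of 20 in mesothelial nuclei (15.5%) and 6 of 17 in macrophages (12.5%). The genes below were chosen after their values were seen. In adipocytes, Gnai1, an inhibitory G protein subunit, had 103 CPM in HWAT, against 345 in SWAT, 607 in EWAT, 349 in MWAT and 399 in NWAT, and HWAT was 0.30 times the next lowest (0.27 to 0.33). Adcy5, an adenylyl cyclase, had 30.9 CPM in HWAT, against 118 in SWAT, 147 in EWAT, 150 in MWAT and 154 in NWAT (0.26 times, 0.21 to 0.32). In the same adipocytes the macrophage-led genes Pla2g7, Cbr2 and Alox5ap were highest in HWAT, at 5.39, 3.14 and 2.97 times the next depot, and their part in the adipocyte values was not tested.

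In FAP, Pde3a, a cyclic nucleotide phosphodiesterase, had 95.7 CPM in HWAT, against 488 in SWAT, 617 in EWAT, 1424 in MWAT and 676 in NWAT (HWAT 0.20 times the next lowest, 0.14 to 0.26). In mesothelial nuclei Pde4d, another, had 1407 CPM in HWAT, against 510 in MWAT, 293 in NWAT and 229 in EWAT (2.76 times, 2.64 to 2.89). In macrophages, HWAT was lowest for Prkar2b (0.22 times the next lowest, 0.14 to 0.355), Pde3b (0.285 times, 0.235 to 0.345) and, among the arachidonate release genes, Mgll (0.325 times, 0.20 to 0.52).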
